A study of Mus musculus with 2 samples.

Results

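The transcripts described here are those of 49 mouse genes of actin assembly and contractility, taken by symbol from a table of 46095 entries. They are the cytoplasmic actins, the factors that nucleate, cap, sever, bundle and anchor actin filaments, and non-muscle myosin II. RNA sequencing compared cells sorted as Mac1+ and c-kit+ from the bone marrow of C57BL/6 mice with acute myeloid leukaemia, aged 8 weeks, and the labels call these cells leukaemia-initiating. One library carries the genotype wild type (WT in what follows) and 1 the genotype P2x1-KO (P2X1-KO), the receptor being the ATP-gated cation channel encoded by P2rx1. Elsewhere the labels pair these groups with the names P2X1-Scr and P2X1-KD, so whether the gene was deleted or knocked down cannot be told from them. Not given in the sources used here are how the leukaemia was induced and whether a library holds 1 animal or a pool. With 1 library in each group nothing below has a replicate check, no test between the conditions is possible, and every interval covers counting error only. Even for that the intervals may be too narrow, since they treat reads as independent and reads copied by PCR are not independent molecules.

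Actin filaments grow from a pool of monomers that profilin and thymosin beta proteins hold ready. The Arp2/3 complex starts branches on existing filaments once a WASP or WAVE protein switches it on, cortactin and its blood cell relative HS1 steady those branches, and cofilin and gelsolin take filaments apart. Filamin, plastin and alpha-actinin tie filaments together, myosin II pulls on them, and ezrin, moesin and radixin fasten them to the membrane. In blood cells this machinery drives crawling, phagocytosis, adhesion and retention in the marrow.

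The targeted transcript went against the label. P2rx1 had 27 counts (1.73 CPM) in the WT-labelled library and 45 counts (5.07 CPM) in the P2X1-KO-labelled library, 2.93-fold higher (95% interval 1.78 to 4.90). Directions below are therefore differences between the 2 libraries as labelled. An exchange of the labels or columns was not tested, and if there was one every direction below would turn. The sorted markers were present, with Itgam (the alpha chain of Mac1) at 307 and 504 CPM and Kit at 13.3 and 19.9 CPM, each pair given in the order WT, then P2X1-KO. CPM is counts per 1000000 of the library size after TMM scaling (edgeR's trimmed mean of M values). The libraries held 14658620 and 9447894 counts, so the first has the narrower intervals at a given CPM. In bulk RNA a smaller share of cells of one type and less RNA per cell cannot be told apart.

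Most of the actin genes stood somewhat higher in the P2X1-KO-labelled library, and the few that stood far apart did so in both directions. Together the 49 genes took 2.04% (2.03 to 2.04) of all counts in the WT-labelled library and 3.12% (3.11 to 3.13) in the other. These are shares of the library totals, so they depend on the counts of all other genes too. A mean of at least 5 CPM was reached by 43 of them, and 36 of these (83.7%) had the higher CPM in the P2X1-KO-labelled library, against 45.8% of the 10483 genes at that level. At least 2-fold higher were 11 (25.6%), where 12.1% of all genes at that level were. At least 2-fold lower were 2 (4.65%), against 10.6% of all genes. Counting only genes whose whole interval lay beyond 2-fold left 9 higher (20.9%, background 9.37%) and 2 lower (4.65%, background 6.21%). The median log2(CPM + 0.5) difference was 0.49 for the actin genes and -0.08 for all genes. With library totals in place of TMM, 6 were at least 2-fold higher (13.95%, against 9.67% of all genes), since Actg1, Cap1, Coro1a, Flna and Myl12a then lay within 2-fold. That scaling split all genes into 9.67% higher and 15.3% lower, and moved their median by -0.18. The gap between the actin genes and all genes was 0.57 with either scaling. A change of scaling shifts all genes nearly alike, so this gap could not differ.

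**Figure D1:**
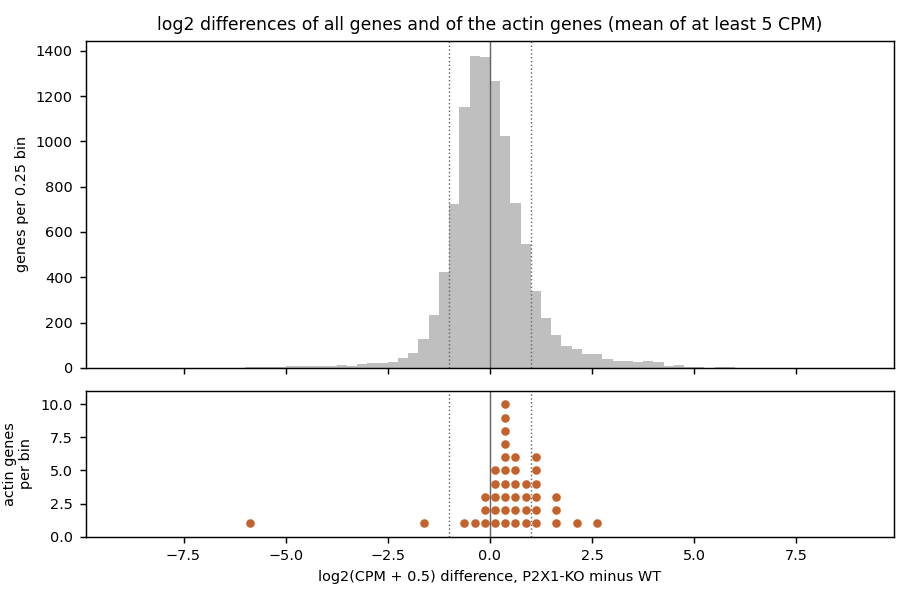
The upper panel counts all 10483 genes whose mean reached 5 CPM by their log2(CPM + 0.5) difference, P2X1-KO minus WT, in bins of 0.25, and in the lower panel each point is 1 of the 43 actin genes at that level, stacked at the middle of its bin, with dotted lines at 2-fold. The actin genes centre at 0.49, to the right of 0, and Cttn and Rdx lie apart on the left.

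Both cytoplasmic actins were higher in the P2X1-KO-labelled library. Actb, beta-actin, had 58790 counts (3771 CPM) in the WT-labelled library and 55655 counts (6266 CPM) in the P2X1-KO-labelled library, 1.66-fold higher (1.64 to 1.68). It was the most abundant of the actin genes per exon length in the WT-labelled library, at 1407 CPM per kb, and stood at 2339 CPM per kb in the other. Actg1, gamma-actin, had 5148 counts (330.2 CPM) in the WT-labelled library and 6030 counts (679 CPM) in the P2X1-KO-labelled library, 2.06-fold higher (1.98 to 2.13). Within the actin pair the share of Actg1 counts was 8.05% (7.84 to 8.27) and 9.78% (9.54 to 10.01), so Actb supplied most actin transcripts in both libraries.

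Monomer-binding and severing genes summed to 2929 and 7277 CPM, and Tmsb4x alone made up most of the difference. Their median log2 difference was 0.87, against 1.11 for the myosin II genes. All 6 measured members had the higher CPM in the P2X1-KO-labelled library, and 3 had an interval wholly beyond 2-fold. Tmsb4x, thymosin beta 4, which sequesters actin monomers, had 13085 counts (839 CPM) in the WT-labelled library and 33907 counts (3817 CPM) in the P2X1-KO-labelled library, 4.55-fold higher (4.46 to 4.64). Tmsb4x spans chrX:167207093-167209315 on the minus strand (mm10, GENCODE M21). In the P2X1-KO-labelled library it passed Actb per exon length, at 2784 CPM per kb, whereas in the WT-labelled library it stood below it, at 612 CPM per kb. Its share of all the actin genes' counts was 4.38% (4.31 to 4.46) and 11.5% (11.4 to 11.6). Tmsb10, its close relative, had 2520 and 4719 counts (162 and 531 CPM), 3.29-fold higher (3.13 to 3.45).

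Cap1, which recharges actin monomers and helps cofilin, had 4503 and 5606 counts (289 and 631 CPM), 2.19-fold higher (2.10 to 2.27). Cfl1, the non-muscle cofilin, which severs old filaments, had 24686 and 19695 counts (1583 and 2217 CPM) and was 1.40-fold higher (1.37 to 1.43). Pfn1, profilin, was low in both libraries at 39.7 and 61.1 CPM, 1.54-fold higher (1.37 to 1.73). Cfl2, the muscle-type cofilin, had 256 and 165 counts, and its interval spanned no difference (1.13-fold, 0.925 to 1.38). Pfn2, the profilin known from neurons, had 0 counts in both libraries.

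Cortactin stood furthest apart of all the actin genes, and its blood cell relative went the other way. Cttn spans chr7:144435733-144471009 on the minus strand. It had 518 counts (33.2 CPM) in the WT-labelled library and 1 count (0.113 CPM) in the P2X1-KO-labelled library, a ratio of 295 with an interval of 52.7 to 11678. Hcls1, which encodes HS1, had 5367 counts (344 CPM) in the WT-labelled library and 4876 counts (549 CPM) in the P2X1-KO-labelled library, 1.59-fold higher (1.53 to 1.66). Of the counts of this pair Cttn took 8.80% (8.09 to 9.55) and 0.0205% (0.000519 to 0.114). Per exon length Hcls1 was the leading gene of the pair in both libraries, at 136 and 217 CPM per kb against 7.93 and 0.0269 CPM per kb for Cttn, so Cttn was the minor member of the pair in either library.

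All 4 measured activators of branching and all 8 Arp2/3 subunit genes lay within 2-fold. Of all genes at that level, 12.1% were at least 2-fold higher and 10.6% lower, so most lay within 2-fold too. Was, encoding the WASP protein of blood cells, had 3512 and 2391 counts (225 and 269 CPM), 1.20-fold higher (1.13 to 1.26). Wipf1, whose product WIP holds WASP stable, was level at 106 and 110.1 CPM. Wasf2, encoding WAVE2, had 158 and 145 CPM, 1.09-fold lower (1.02 to 1.17), and Wasl, encoding the widely expressed N-WASP, had 18.02 and 15.6 CPM with an interval that spanned no difference. Under total-count scaling Wipf1 changed sign, and after a correction for exon length and GC content Wasl and Wasf2 did. Wasf1, the WAVE protein known from brain, had 0 counts in both libraries.

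Of the 8 Arp2/3 subunit genes, 6 had the higher CPM in the P2X1-KO-labelled library and 2 the lower, with a median log2 difference of 0.36. The subunits did not shift by one common factor. Arpc3 was 1.70-fold higher (1.63 to 1.77) and Arpc4 1.53-fold higher (1.45 to 1.60), while Arpc1a was 1.35-fold lower (1.23 to 1.49) and Actr2, encoding ARP2, was level at 346 and 337 CPM. Actr2 had the opposite sign with upper-quartile scaling and after the length and GC correction. Between these lay Arpc2 (1.40-fold higher), Arpc5 (1.37-fold), Arpc1b (1.20-fold) and Actr3, encoding ARP3 (1.20-fold). Arpc2 and Arpc1b were the most abundant subunit genes per exon length, at 406 and 569 CPM per kb and 229 and 275 CPM per kb. Arpc1b, the ARPC1 form typical of blood cells, took 92.3% (91.9 to 92.6) and 95.1% (94.7 to 95.5) of the counts of the Arpc1a and Arpc1b pair. Its merged exons are the longer, and per exon length its share was 85.7% and 90.7%.

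**Figure D2:**
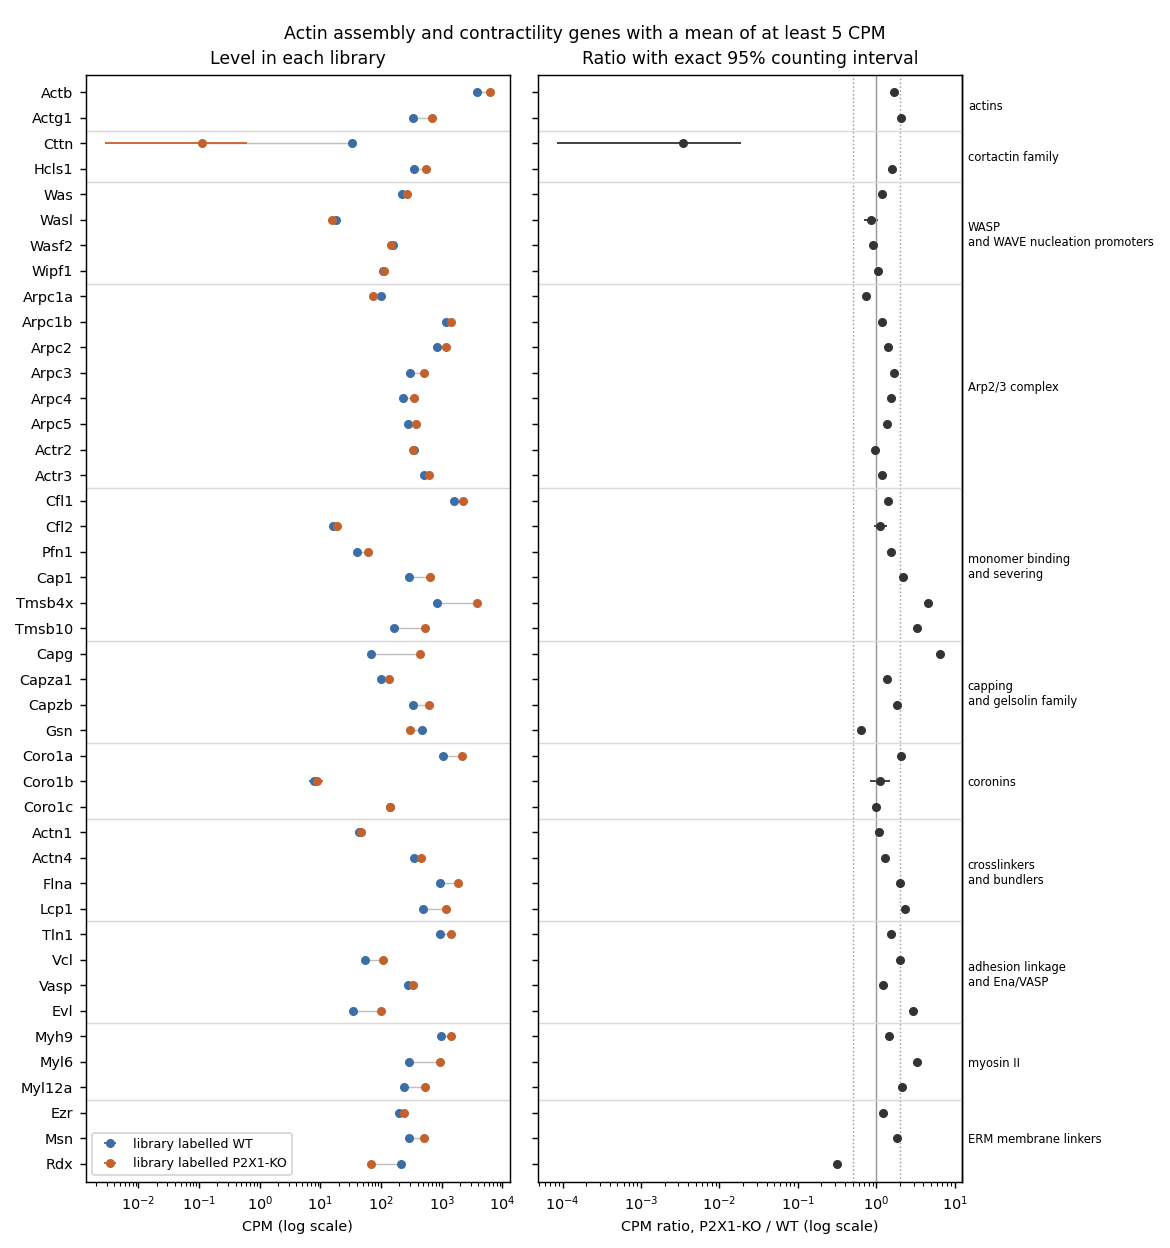
The left panel gives the CPM of each of the 43 actin genes in both libraries on a log axis with exact Poisson intervals, and the right panel the CPM ratio, P2X1-KO over WT, with its exact 95% interval and dotted lines at 2-fold, grouped by role. Most ratios sit between 1 and 2, Capg and Tmsb4x reach 6.50 and 4.55, and Cttn lies at the far left.

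Among capping and severing proteins, the libraries differed in which gelsolin relative led. Capg, which caps filament ends without cutting them and is known from macrophages, had 1065 counts (68.3 CPM) in the WT-labelled library and 3942 counts (444 CPM) in the P2X1-KO-labelled library, 6.50-fold higher (6.07 to 6.96), the highest ratio of the actin genes at this level. Capg spans chr6:72544391-72562983 on the plus strand. Gsn, gelsolin itself, which caps and severs, went the other way with 7386 counts (474 CPM) in the WT-labelled library and 2695 counts (303 CPM) in the P2X1-KO-labelled library, 1.56-fold lower (1.49 to 1.63). Per exon length Capg supplied 15.2% (WT) and 64.6% (P2X1-KO) of the summed level of Capg, Gsn and Vil1. The subunit genes of the barbed-end capping protein were both higher within 2-fold, with Capzb at 339 and 624 CPM, 1.84-fold higher (1.77 to 1.91), and Capza1 at 97.9 and 135 CPM, 1.37-fold higher (1.27 to 1.48). Vil1, the villin of gut epithelium, had 19 and 3 counts, a ratio of 3.61 towards the WT-labelled library (1.06 to 19.04).

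Coronins guide Arp2/3 and cofilin along filaments. Coro1a, the coronin of blood cells, had 16621 counts (1066 CPM) in the WT-labelled library and 19496 counts (2195 CPM) in the P2X1-KO-labelled library, 2.06-fold higher (2.02 to 2.10). Coro1c was level at 138 and 139 CPM, and Coro1b, with 123 and 78 counts, had an interval of 0.827 to 1.49. Both lay slightly lower in the P2X1-KO-labelled library with total-count scaling. Coro1a alone of the 3 was at least 2-fold apart, and it did not reach that mark with total counts (1.82-fold).

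Genes that bundle filaments or link them to adhesions were higher or level. Lcp1, the plastin of blood cells, which packs filaments into tight bundles, had 7760 counts (498 CPM) in the WT-labelled library and 10266 counts (1156 CPM) in the P2X1-KO-labelled library, 2.32-fold higher (2.25 to 2.39). Flna, filamin A, which crosslinks filaments into a gel, had 14357 and 16393 counts (921 and 1846 CPM) and sat on the 2-fold mark at a ratio of 2.004. Vcl, vinculin, which anchors filaments at adhesions, sat just under it, at 844 and 961 counts and a ratio of 1.999. Tln1, talin, which activates integrins, had 14609 and 12677 counts (937 and 1427 CPM), 1.52-fold higher (1.49 to 1.56). The alpha-actinins differed less, with Actn4 1.31-fold higher (1.25 to 1.36) and Actn1 at 42.8 and 47.1 CPM, an interval of 0.970 to 1.24 and the opposite sign with total counts.

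Evl, an Ena/VASP protein that speeds filament elongation, had 534 counts (34.2 CPM) in the WT-labelled library and 886 counts (99.7 CPM) in the P2X1-KO-labelled library, 2.91-fold higher (2.61 to 3.25). Vasp, its relative, was 1.22-fold higher (1.17 to 1.28) at 273 and 334 CPM, so the part of Evl in the counts of this pair was 11.1% (10.3 to 12.1) and 23.0% (21.7 to 24.4). Pls3, the plastin of other tissues, had 0 and 1 counts, at or under the floor of 3 counts in both libraries. Fscn1, fascin, a bundler of filopodia known from dendritic cells, had 0 and 5 counts. Set against 3 counts in the WT-labelled library its ratio would be 2.93, which is no lower bound. The lower bound of its exact interval was 1.61.

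The non-muscle myosin II genes were all higher, the light chains more than the heavy chain. Myh9, the heavy chain, had 14878 and 12511 counts (954 and 1408 CPM), 1.48-fold higher (1.44 to 1.51). Myl6, the essential light chain, had 4538 counts (291 CPM) in the WT-labelled library and 8466 counts (953 CPM) in the P2X1-KO-labelled library, 3.27-fold higher (3.16 to 3.40). Myl12a, a regulatory light chain, had 3754 and 4627 counts (241 and 521 CPM), 2.16-fold higher (2.07 to 2.26), and its interval fell beyond 2-fold with TMM while its ratio was 1.91 with total counts. Myl9, the regulatory light chain of smooth muscle, had 0 counts in both libraries. The floor of 3 counts is 0.192 CPM in the WT-labelled library and 0.338 CPM in the other. The exact upper bound of a count of 0 lies somewhat higher, at 3.69 counts. The same holds for Wasf1 and Pfn2.

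The genes that join filaments to the plasma membrane differed in opposite directions. Rdx, radixin, had 3290 counts (211 CPM) in the WT-labelled library and 595 counts (66.98 CPM) in the P2X1-KO-labelled library, 3.15-fold lower (2.89 to 3.44). Rdx spans chr9:52047173-52088735 on the plus strand. Msn, moesin, the form that prevails in leukocytes, had 4442 and 4592 counts (285 and 517 CPM), 1.81-fold higher (1.74 to 1.89), and Ezr, ezrin, had 198 and 242 CPM, 1.23-fold higher (1.16 to 1.30). Per exon length the 3 were of like abundance in the WT-labelled library, with Rdx at 30.2%, Msn at 29.9% and Ezr at 39.9% of their sum. In the P2X1-KO-labelled library, Rdx stood at 8.50%, Msn at 48.1% and Ezr at 43.4%.

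Shares within a family of relatives do not depend on how the libraries are scaled to each other. Among the 15 such groups formed from these genes, 3 had a member whose share per exon length differed by more than 10 percentage points between the libraries, and the same number did without length normalisation. They were Capg against Gsn, Rdx against Msn and Ezr, and Evl against Vasp. In 13 of the 15 groups the same gene led per exon length in both libraries, the exceptions being Gsn and Capg, and Ezr and Msn. Cfl1 took over 99% of the cofilin pair per exon length, at 99.1% (WT) and 99.3% (P2X1-KO), Coro1a 95.8% (WT) and 97.9% (P2X1-KO) of the coronins, and Tmsb4x 82.9% (WT) and 86.99% (P2X1-KO) of the thymosins.

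**Figure D3:**
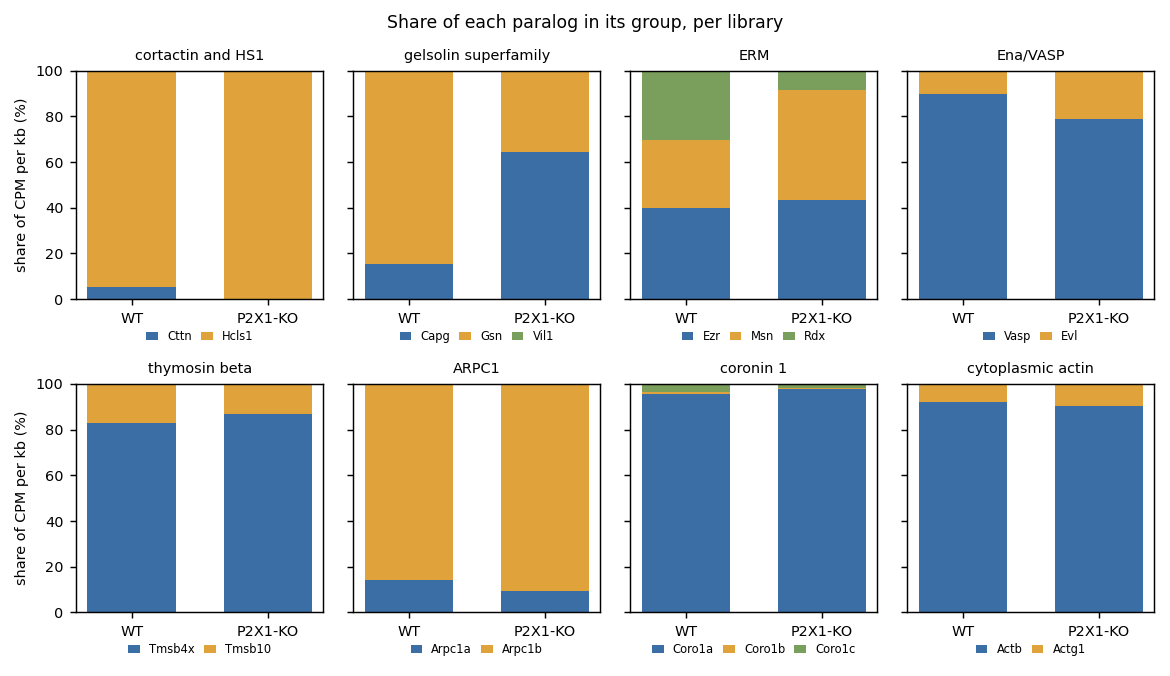
Each pair of bars divides the summed CPM per kb of exon of 1 group of relatives among its members (percent, from 0 to 100), for the WT-labelled library on the left and the P2X1-KO-labelled library on the right, for 8 of the 15 groups. The Capg share is 15.2% on the left and 64.6% on the right, and the Rdx share 30.2% and 8.50%.

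Beyond these genes, 157 symbols of others that control actin were listed, of which 155 are in the table and 116 had a mean of at least 5 CPM. Of these, 20 (17.2%) stood above the 2-fold mark and 6 (5.17%) below its inverse, against the same backgrounds of 12.1% and 10.6%. Their median log2 difference was 0.35. Zyx, Fyb, Tesk1, Twf2, Coro2a and Svil are named below because they passed 2-fold, and were chosen after their values were seen.

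In the exchange factor and kinase lists, which act upstream of actin, the shares of genes past 2-fold were near or below those of all genes. Among 16 exchange factor genes 1 was at least 2-fold higher (6.25%). It was Tiam1, an activator of RAC, which had 180 and 637 counts and was 6.21-fold higher (5.26 to 7.37), and none of the list was 2-fold lower, with Arhgef6 at 1.83-fold lower (1.70 to 1.96). The kinase and phosphatase list, 18 genes measured, held 3 at least 2-fold higher (16.7%, background 12.1%) and 2 lower (11.1%, background 10.6%). The whole interval lay beyond 2-fold for 1 of the higher genes. Mylk, myosin light chain kinase, had 1383 and 96 counts (88.7 and 10.8 CPM), 8.21-fold lower (6.67 to 10.2), whereas the myosin light chain genes were higher. Cdc42bpa, which encodes the CDC42 effector kinase MRCK alpha, had 449 and 5 counts, 51.2-fold lower (21.8 to 158). Ssh2, a phosphatase that switches cofilin on, and Limk1, a kinase that switches it off, were both higher, by 2.33-fold and 2.10-fold, as was Tesk1 (2.003-fold).

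Other filament genes past 2-fold lay on both sides among the nucleators and on the higher side elsewhere. Of 12 formin and other nucleator genes, 1 was at least 2-fold higher (8.33%, background 12.1%) and 2 lower (16.7%, background 10.6%). Inf2 was 3.10-fold higher (2.77 to 3.47), and Fmnl2 (150 and 21 counts) and Diaph3 (467 and 117 counts) were 4.07-fold and 2.27-fold lower. In the list of WAVE complex and WASP partners, 11 of 12 lay within 2-fold, with Abi3 4.40-fold higher (3.24 to 6.06). That is 8.33% at least 2-fold higher (background 12.1%) and 0 lower (background 10.6%). Of 16 further capping, severing and monomer genes, 5 were at least 2-fold higher (31.25%, background 12.1%) and 0 lower (background 10.6%). The 5 were Eps8 (4.76-fold), Twf2 (2.28-fold), Gmfg (2.27-fold), Svil (2.22-fold) and Coro2a (2.15-fold).

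Of 10 other myosin and tropomyosin genes, 1 was at least 2-fold higher (10%, background 12.1%) and 0 lower (background 10.6%). It was Tpm4, a tropomyosin that coats filaments, 8.06-fold higher (7.12 to 9.14), at 310 and 1423 counts. Myl12b, nearly the same protein as Myl12a, was 1.98-fold higher (1.92 to 2.05). The crosslinker and adhesion list held 4 of 14 at least 2-fold higher (28.6%, background 12.1%) and 0 lower (background 10.6%). Lsp1, a filament-binding protein of leukocytes, had 816 and 7430 counts (52.3 and 836 CPM), 15.98-fold higher (14.9 to 17.2). Tln2, the second talin, had 98 and 874 counts, 15.7-fold higher (12.7 to 19.5), and in CPM stayed far below Tln1. Fyb, an adaptor of integrin signalling, and Zyx, zyxin, were 4.01-fold and 3.11-fold higher.

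**Figure D4:**
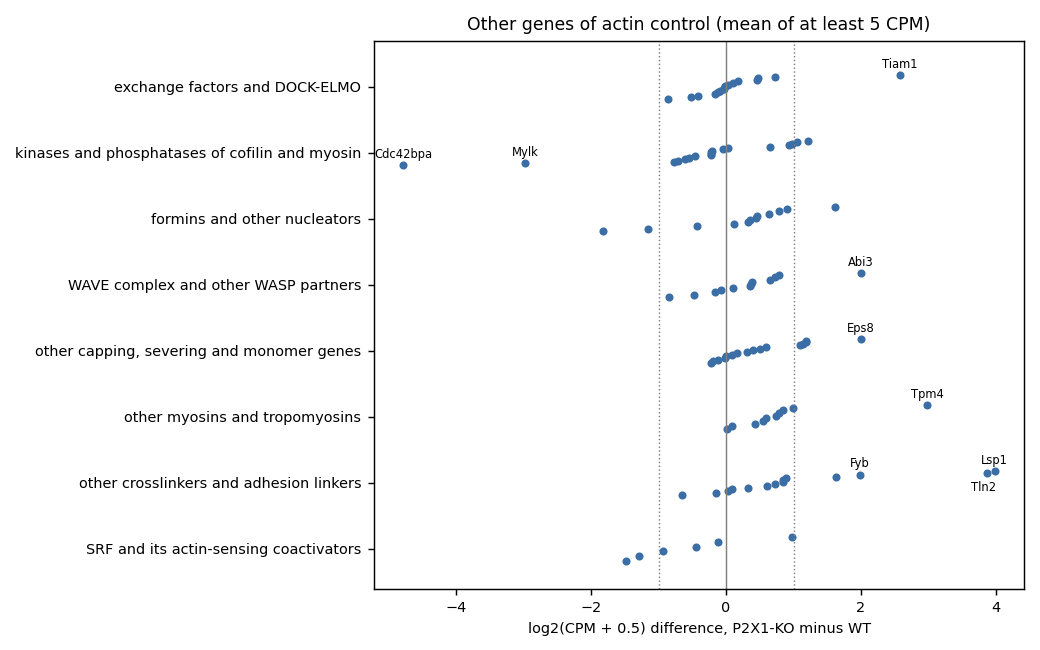
Each point is 1 of 104 of the 116 further actin control genes whose mean reached 5 CPM, placed by its log2(CPM + 0.5) difference, P2X1-KO minus WT, with 1 row for each of 8 lists, dotted lines at 2-fold and names on the outermost points. Lsp1, Tln2 and Tpm4 lie furthest to the right, and Cdc42bpa and Mylk furthest to the left.

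Serum response factor, SRF, is the transcription factor known for sensing free actin monomers through its coactivators and for driving many actin genes. Srf had 6866 counts (440.4 CPM) in the WT-labelled library and 1595 counts (179.6 CPM) in the P2X1-KO-labelled library, 2.45-fold lower (2.32 to 2.59), and Elk4, a partner factor, 407 and 80 counts, 2.90-fold lower (2.28 to 3.73). Elk3 was 1.97-fold higher (1.79 to 2.17). The list has 9 symbols, of which 7 are in the table and 6 reached 5 CPM. Mkl1 and Mrtfa in it are symbols of the same gene, as are Mkl2 and Mrtfb. Of these few genes 2 were at least 2-fold lower (33.3%, background 10.6%) and 0 higher (background 12.1%), with a median log2 difference of -0.70. The CArG box is the element SRF binds. It was searched for on both strands in the 250 bases before the RefSeq start (GRCm38.p6) of the actin genes, and RefSeq starts were found for 46 of the 49, with 59 windows in all. A CArG box occurred in 6 of the 59 windows (10.2%), 1 for each of 6 genes, and in 1.47% of all 32851 windows. All 6 matches are shown, so that the element can be seen in its surroundings. Each is written 5′ to 3′ on the strand of the gene with the box in capitals and up to 20 bases on either side.
Actg1 (chr11:120348556-120348605, minus strand): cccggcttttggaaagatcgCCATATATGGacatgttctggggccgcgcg
Arpc4 (chr6:113377863-113377892, plus strand): CCTAATTTGGtgcccaacctgaggtcgggc
Vil1 (chr1:74409291-74409340, plus strand): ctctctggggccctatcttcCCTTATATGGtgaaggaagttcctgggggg
Vcl (chr14:20929151-20929200, plus strand): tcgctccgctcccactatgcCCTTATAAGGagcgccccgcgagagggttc
Myl6 (chr10:128493030-128493079, minus strand): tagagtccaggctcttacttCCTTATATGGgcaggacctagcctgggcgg
Myl9 (chr2:156775283-156775332, plus strand): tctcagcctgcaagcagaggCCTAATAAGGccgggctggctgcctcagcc

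None of these boxes overlapped a match to the other motifs searched. Of the 6 carriers, Myl6 (3.27-fold), Actg1 (2.06-fold), Vcl (1.999-fold) and Arpc4 (1.53-fold) had the higher CPM in the P2X1-KO-labelled library, as did 83.7% of all the measured actin genes, so nothing particular to the carriers can be read from this. Vil1, below 5 CPM, had 19 and 3 counts and ran the other way, and Myl9 was at 0. A match is a run of letters and not a shown binding site, and RefSeq starts need not be those used in these cells.

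The windows of Capg, Tmsb4x and Rdx are printed because these had the highest, second highest and lowest ratios of the actin genes at this level with a matched start. Rdx has 2 RefSeq starts. Each sequence is the 250 bases before the start, 5′ to 3′, with motif matches in capitals.
Capg (chr6:72549397-72549646, plus strand): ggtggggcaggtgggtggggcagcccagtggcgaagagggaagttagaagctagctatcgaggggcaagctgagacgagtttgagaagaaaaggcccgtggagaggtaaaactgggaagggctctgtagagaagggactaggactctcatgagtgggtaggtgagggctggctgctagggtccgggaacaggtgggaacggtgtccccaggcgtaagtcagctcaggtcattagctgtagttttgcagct
Tmsb4x (chrX:167209219-167209468, minus strand): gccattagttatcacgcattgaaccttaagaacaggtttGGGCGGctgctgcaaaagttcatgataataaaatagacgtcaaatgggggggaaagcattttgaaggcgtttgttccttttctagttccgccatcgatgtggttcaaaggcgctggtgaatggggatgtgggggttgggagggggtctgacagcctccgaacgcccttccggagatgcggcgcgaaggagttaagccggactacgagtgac
Rdx, start 1 (chr9:52046900-52047149, plus strand): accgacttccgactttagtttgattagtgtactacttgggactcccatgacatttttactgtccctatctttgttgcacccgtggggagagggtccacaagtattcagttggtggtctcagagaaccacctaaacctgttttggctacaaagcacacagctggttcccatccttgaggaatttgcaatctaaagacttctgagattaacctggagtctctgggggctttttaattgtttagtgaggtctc
Rdx, start 2 (chr9:52047691-52047940, plus strand): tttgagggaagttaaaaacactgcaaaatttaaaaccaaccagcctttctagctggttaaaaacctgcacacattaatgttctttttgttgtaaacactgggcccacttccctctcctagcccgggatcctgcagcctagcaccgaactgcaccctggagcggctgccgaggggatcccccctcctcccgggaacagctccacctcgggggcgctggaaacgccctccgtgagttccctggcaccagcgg

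Besides the CArG box, the motifs searched on both strands were the GC box GGGCGG, the CCAAT box CCAAT, the TATA box TATAAA, the E-box CACGTG, and the ETS forms CCGGAAGT and GAGGAAGT, which share the letters GGAAGT. Capg and Rdx held none of these letters in the windows shown, and Tmsb4x held 1 GC box. Over the 59 windows, 37 (62.7%) held a GC box against 32.7% of all windows, and 6 (10.2%) held CCGGAAGT against 2.88%. CCAAT was in 18 (30.5%, against 33.8%), TATAAA in 3 (5.08%, against 12.4%), CACGTG in 6 (10.2%, against 6.02%) and GAGGAAGT in 0 (against 2.44%).

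Markers of mature myeloid cells differed between the libraries alongside these genes. The 9 neutrophil markers summed to 3214 CPM in the WT-labelled library and 12739 CPM in the other. Of these, 7 of 8 measured were at least 2-fold higher, where 12.1% of all genes were, and none was at 0. The exception, Ly6g, had 109 and 36 counts. The 9 monocyte and macrophage markers summed to 901 and 5736 CPM, with 8 of 9 at least 2-fold higher (background 12.1%) and none at 0. The exception was Ly6c2 (8519 and 4412 counts). Their part in the higher Capg, Tmsb4x, Coro1a, Lcp1, Lsp1 and Myl6 was not tested. The 9 eosinophil and mast cell markers summed to 41.2 and 225 CPM, with Ccr3, Fcer1a and Cma1 at 0 in both. Of 4 measured, 3 were at least 2-fold higher (background 12.1%) and 0 lower (background 10.6%). These were Prg2 (8 and 1149 counts), which made up most of the second sum, Siglecf (84 and 477 counts) and Cpa3 (1 and 166 counts). Mcpt8 (530 and 204 counts), within 2-fold, and Ear6 (19 and 0 counts), below 5 CPM, ran the other way.

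Markers of smooth muscle, a tissue rich in contractile actin genes, were low. Among stromal markers the collagens were higher in the P2X1-KO-labelled library and Pdgfrb was lower. The 8 smooth muscle and pericyte markers had 319 and 55 counts, or a summed 20.5 and 6.19 CPM, with Acta2 at 20 and 25 counts, Actg2 at 0 in both, and Des (162 and 9 counts) and Rgs5 (100 and 7 counts) making up most of the sum in the WT-labelled library. The 9 stromal markers had 1481 and 2258 counts, or a summed 94.99 and 254 CPM. Col1a1 had 15 and 1327 counts, Pdgfrb 1452 and 418 counts, and Dcn, Lum and Pdgfra were at 0 in both. Megakaryocyte and platelet markers summed to 8.08 and 23.3 CPM, with Pf4, Ppbp, Gp1ba and Treml1 at 0 in both. Most of either sum was Itgb3 (81 and 160 counts), while Itga2b had 38 and 34 counts and Gp9 6 and 7. Platelets are known to be rich in Tmsb4x and Flna, and their part in these genes was not tested. The endothelial list summed to 12.8 and 43.01 CPM with Kdr, Tek and Emcn at 0 in both. Nearly all of it was Pecam1 (192 and 377 counts), and Cdh5 (3 and 5), Esam (3 and 0) and Tie1 (1 and 0) had few counts. The epithelial list summed to 11.9 and 16.5 CPM, most of it Krt18 (168 and 94 counts), with Krt19 and Cldn4 at 0 in both. B cell markers summed to 16.6 and 49.6 CPM, most of it Cd79b, while T and NK cell markers (0.128 and 0.901 CPM) and erythroid markers (0.962 and 2.14 CPM) were nearly absent.

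Longer genes tended to have lower ratios. Across the 43 actin genes, Spearman's rank correlation between exon length and log2 difference was -0.26, and across the 10240 genes with a known length it was -0.31, both as descriptions over genes of the same 2 libraries. After correction for exon length and GC content, Tmsb4x was 3.46-fold, Tmsb10 2.37-fold and Capg 5.99-fold higher. The correction raised other ratios, with Lcp1 at 3.03-fold, Vcl at 2.67-fold and Msn at 2.16-fold higher, and Rdx had a ratio of 0.367.

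Some values are uncertain because other genes hold near-identical sequence or overlap on the genome. At 95% identity, copies elsewhere cover 91.5% of the longest Actr3 transcript, 89.4% of Capza1, 59.9% of Tmsb10 and 57.8% of Actg1, and smaller parts of Arpc1b, Arpc2, Myl12a, Cttn and Cfl1. The copies of Capza1 had 959 and 225 counts of their own, and the copy of Cttn 1 and 0. Tmsb4x, Capg, Rdx, Gsn, Lcp1 and Evl had no copy by this measure. With the strand setting unknown, reads of Vcl cannot be told from those of Ap3m1, of Arpc1b from Pdap1, or of Cfl1 from Snx32, where exons overlap on opposite strands, and Myl12a, Coro1b and Arpc4 overlap Myl12b, Ptprcap and Ttll3 on the same strand.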

How the data were processed

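Total RNA of 2 libraries was sequenced, 1 in each group. The values the authors deposited are raw counts of reads, whole numbers for each gene symbol. The submitters' processing notes name HISAT2 2.0.4 and mm10. Not given in the sources used here are the counting tool, the annotation and the strand setting.

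Samples were grouped by their titles. The members and lists were chosen with earlier results of these data known. Counts were scaled by TMM in edgeR 4.0.16 under R 4.3.3, to effective sizes of 15591519 (WT) and 8882591 (P2X1-KO). Folds are CPM ratios with exact 95% Clopper-Pearson intervals. Log2 differences use a pseudocount of 0.5 CPM and understate those of low genes. A count of 0 was set against 3 counts per library. The scaling and intervals were run on simulated counts that held counting error only and few changed genes. That run could not show how they do in these libraries. No p-value was computed. By the naming rule every member with a count may be named. From each pathway list the rule took up to 2 genes per direction by the interval bound nearest to no change, and 1 list, counted in the totals, is not reported here.

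Exon lengths (all exons of a gene merged, so that levels per kb of genes with many isoforms are understated) and coordinates came from GENCODE M21, which matched all 49 members. Copies were sought with BLAST 2.17.0 (at least 100 bases, at least 20% of the transcript). Date-like entries in place of symbols numbered 27 and stayed in the totals. Other scalings (upper quartile, DESeq2 1.42.0 size factors, library totals, and totals without the 20 most abundant genes of either library), filters, pseudocounts and a correction within 20 bins of exon length and then of GC content were tried.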

Additional observations from a re-analysis of the deposited data

How the results depend on the processing

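The count of actin genes at least 2-fold higher was 6 with library totals and 6 with totals that leave out the most abundant genes, down from 11. The same scalings gave a median log2 difference of 0.31 and 0.32, and moved the median of all genes by -0.18 and -0.16. The actin genes stood 0.57 above all genes in both, as with TMM. Scaling shifts all genes nearly alike, so this gap is no check on the result. The other settings gave between 11 and 13, with Vcl and Msn added by the length and GC correction. The 13 without a filter include Pls3 and Fscn1, which had a count of 0 in the WT-labelled library. A minimum of 20 CPM left 1 gene lower, Rdx, since Cttn falls under it, and a median of 0.61. The count of other pathway genes at least 2-fold lower was 12 at a minimum of 1 CPM, 3 at 20 CPM and 21 without a filter. None of the 13 actin genes at least 2-fold apart changed direction under any scaling, pseudocount or correction tried. For the scalings and pseudocounts this was fixed in advance. The scalings shifted genes by far less than 2-fold, and a pseudocount cannot change a sign. Of all 43, 4 changed sign with total counts, 1 with upper-quartile scaling and 3 after the length and GC correction. No library could be left out, since each group has 1, and no paired analysis was possible because the groups share no second sample.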

Other observations

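Profilin was far below its usual partners in these tables. Per exon length Pfn1 stood at 16.5 and 25.4 CPM per kb, against 557 and 779.6 CPM per kb for Cfl1 and 406 and 569 CPM per kb for Arpc2, although Pfn1 is known as an abundant protein of blood cells. No copy or overlapping gene was found for Pfn1 by the measures used here, and the way reads were counted is not known.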
